A study of Homo sapiens with 4 samples.

Results

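Histone genes were examined by RNA sequencing in NCI-H520, a cell line established from a squamous carcinoma of the lung. The Vehicle group (ultrapure water) and the group exposed to Hx1R8 (10 µM, 12 h) had 2 libraries each. The cells of both were wild type and kept in RPMI-1640 with fetal bovine serum at 15%, and each library was made from 1.5 µg of total RNA extracted with TRIzol. The composition of Hx1R8 and any selection of polyadenylated RNA by the library kit are facts not given in the sources used here. Only 1 cell line was studied, and separate cultures for the replicates are not stated, so every p-value measures only the spread between these libraries, which may be technical. Members were taken by gene symbol, which gave 78 of the 28277 genes in the deposited table. These were 66 genes of the clustered, replication-dependent families, 10 variant genes transcribed outside those clusters, and 2 germline linker histone genes also outside them. The latter 2 were H1-7 and H1-8. The clustered genes comprised 6 H1, 16 H2A, 17 H2B, 13 H3 and 14 H4 genes. Of them, 55 lie on chromosome 6 between bases 25726063 and 27893891 and 11 on chromosome 1 between bases 149782689 and 149887916 (hg38). Vehicle replicate 2 stood apart from the other libraries: the chi-square per gene was 2.18 to 2.81 between it and each of the other 3 libraries, highest against Vehicle replicate 1, and 1.45 to 1.73 among those 3. Values without it are therefore given beside some of the treatment results, but not beside the family sums or the pathway lists. The comparison asked how far transcripts of the clustered and of the variant genes were present in this line, and whether either differed after Hx1R8.

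Histone proteins package DNA into nucleosomes, in which H2A, H2B, H3 and H4 form the core and H1 binds the linker DNA. The clustered genes supply most new histone during S phase, and their messages characteristically lack introns and end in a conserved stem-loop, bound by the protein SLBP, in place of a poly(A) tail. Variant genes are transcribed through the cell cycle or in resting cells as well, give polyadenylated messages, and supply histones with particular roles, such as H2AZ1 and H2AZ2 at promoters, H2AX at DNA breaks and H3-3B in replacement of H3 outside replication. Some clustered genes are also known to give longer, polyadenylated messages, mainly in cells that leave the cycle.

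The stem-loop was read from GENCODE v29 transcripts (GRCh38), and examples are shown because it is the feature that distinguishes messages of the 2 classes. The motif searched was 16 bases long: GG, any 3 bases, TT, any base, T, any base, A, any 3 bases and CC. It was searched on the transcript strand only and after the stop codon, with the first 6 and the last 6 bases required to pair with each other (G-T pairs allowed) around a loop of 4 bases. Of the 66 clustered genes, 62 matched a GENCODE v29 gene and 30 of these had at least 16 annotated bases after the stop codon. The motif stood in 26 of the 30 (86.7%), against 78 of 19097 protein-coding genes in all (0.408%), a figure that includes the histone genes. In H1-4, H1-6, H2BC11 and H4C3 the letters were not in the annotated window. Of the 10 variants, H2AX alone held the motif. The stem-loop began 23 to 57 bases after the stop codon in the 27 genes that held it, and it took 7 different spellings. The lines below show the stem-loop in capitals with 5 flanking bases on either side in lower case, 5′ to 3′ in transcript orientation, for the 4 clustered genes with a stem-loop that passed the count filter, for 4 further genes with other spellings and for H2AX.
H2BC9 (chr6:26252055-26252070, plus strand): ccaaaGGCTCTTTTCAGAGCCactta
H2AC6 (chr6:26124669-26124684, plus strand): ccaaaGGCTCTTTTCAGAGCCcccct
H2BC21 (chr1:149886188-149886203, minus strand): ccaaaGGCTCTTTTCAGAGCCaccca
H2BC5 (chr6:26158587-26158602, plus strand): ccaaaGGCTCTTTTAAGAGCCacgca
H2AC11 (chr6:27133515-27133530, plus strand): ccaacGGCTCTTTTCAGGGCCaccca
H3C6 (chr6:26225596-26225611, plus strand): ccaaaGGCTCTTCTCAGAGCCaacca
H4C8 (chr6:26285131-26285146, minus strand): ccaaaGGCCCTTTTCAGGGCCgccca
H4C9 (chr6:27139654-27139669, plus strand): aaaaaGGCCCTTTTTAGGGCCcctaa
H2AX (chr11:119094898-119094913, minus strand): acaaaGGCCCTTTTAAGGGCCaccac

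The spelling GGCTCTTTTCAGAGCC, seen in H2BC9, H2AC6 and H2BC21 above, was shared by 13 genes of the H2A, H2B and H3 families. The H4 genes used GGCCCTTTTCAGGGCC (4 genes) or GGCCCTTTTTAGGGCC (3 genes). For H2AX the GENCODE v29 transcript runs 1044 bases past the stem-loop, and the row in the deposited table runs 1023 bases past it. For the 22 clustered genes with a stem-loop and a row at a single locus, the deposited row covered the stem-loop in 22 and ended at most 10 bases past it in 17. The rows of H2AC8, H2BC5, H2BC8, H2BC18 and H2BC21 went further. In 14 of the 22, GENCODE v29 lists an end at least 300 bases past the stem-loop, and most of the deposited rows stop before those ends. The mean level of these 14 genes, per exon length over all libraries, had a median of 0.537 RPKM (0.0978 to 1.51), beside 0.232 RPKM (0.0709 to 0.755) for the other 8, and the 2 ranges overlapped widely.

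Levels are given as RPKM, counts scaled to the library total and to the listed exon length, where genes are compared with each other. The variants were far above the clustered genes in what these libraries captured. The median in Vehicle was 71.1 RPKM over the 10 variants and 0.307 RPKM over the 66 clustered genes, a ratio of 232, and in Hx1R8 the medians were 71.8 and 0.319 RPKM. The 66 include 6 genes without an exon base of their own, and the 10 include H3-3A, which could not be measured. On unshared exon length the Vehicle median of the other 60 clustered genes was 0.372 RPKM. All 10 variants together held 191119 reads over the 4 libraries and the 66 clustered genes 1462 reads. Clustered genes took 0.696% and 0.721% of all histone reads in the Vehicle libraries and 0.796% and 0.813% in the Hx1R8 libraries. Apart from H2AJ and H3-3A, the classes did not meet: 7 of the 9 variants described by name stayed at or above 53.4 RPKM in every library, whereas no clustered gene exceeded 5.96 RPKM in any.

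**Figure D1:**
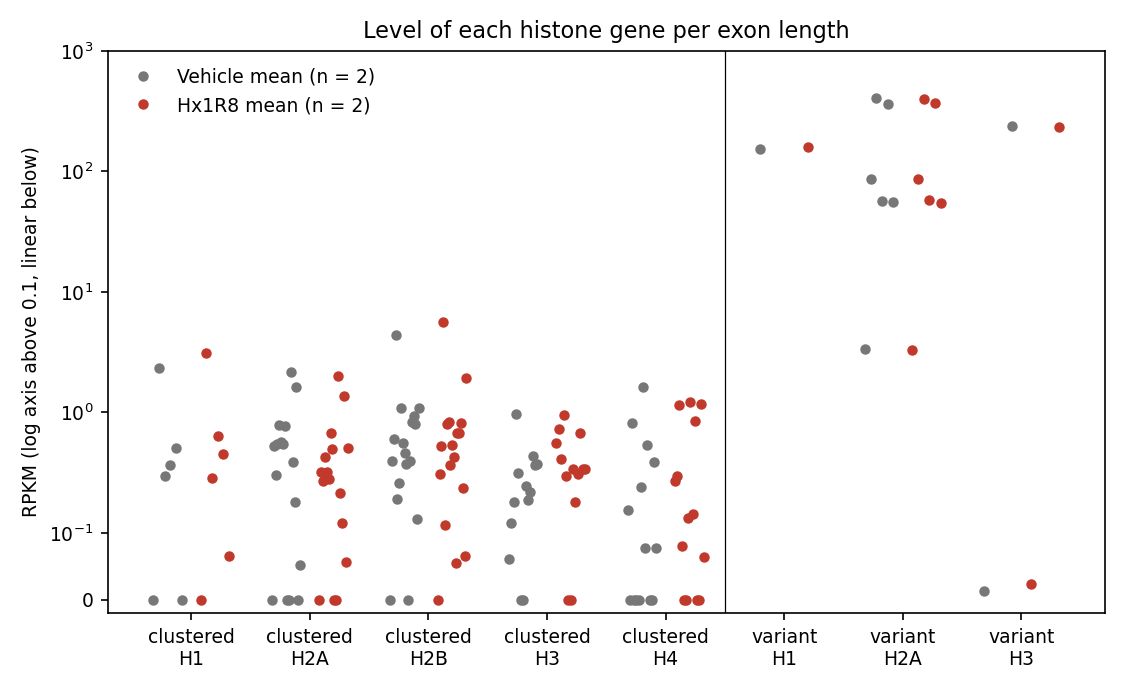
Mean level of the 66 clustered and 9 variant histone genes in RPKM (vertical axis, logarithmic above 0.1 and linear below) by class and family, for Vehicle (grey) and Hx1R8 (red), each point 1 gene averaged over 2 libraries. The clustered genes lie at or below 5.56 RPKM, while 7 of the 9 variants lie at or above 54.4 RPKM.

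Among the H2A variants, H2AZ1, which encodes the H2A.Z found around promoters, had the highest RPKM of all members. It stood at 395 and 414 RPKM in Vehicle and at 411 and 387 RPKM in Hx1R8. MACROH2A1, whose product carries a large extra domain and marks silent chromatin, stood at 353 and 365 RPKM in Vehicle and at 364 and 367 RPKM in Hx1R8. The RPKM values of H2AZ1 lay wholly above those of MACROH2A1, with a ratio of means of 1.11. This order rests on the listed exon lengths, 865 bases for H2AZ1 and 2154 for MACROH2A1. In counts scaled to the library total alone (CPM), the Vehicle means were 350 for H2AZ1 and 773 for MACROH2A1. The closely related H2AZ2 was lower, at 56.6 and 56.1 RPKM in Vehicle and 58.4 and 56.6 RPKM in Hx1R8. Its row lists 4704 exon bases, and its mean CPM in Vehicle was 265, much nearer to H2AZ1. MACROH2A2 was at 53.4 and 57.0 RPKM in Vehicle and 54.9 and 53.9 RPKM in Hx1R8, a range that overlapped that of H2AZ2. H2AX, which is phosphorylated at DNA breaks, was at 87.5 and 84.4 RPKM in Vehicle and 86.2 and 86.1 RPKM in Hx1R8, and it was the one variant with a stem-loop. H2AJ, a variant linked to senescence, was lowest of these at 3.37 and 3.33 RPKM in Vehicle and 3.41 and 3.14 RPKM in Hx1R8. Within the H2A variants the order per listed exon length therefore held in every library except between H2AZ2 and MACROH2A2.

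The replacement H3 gene H3-3B stood at 238 and 234 RPKM in Vehicle and 241 and 229 RPKM in Hx1R8, rank 3 among all members by RPKM. Its partner H3-3A, which encodes the same protein, could not be measured from this table: it was listed with 0 and 1 reads in Vehicle and 1 and 1 reads in Hx1R8. Of its 2263 exon bases (chromosome 1, 226062716 to 226073212), 1042 (46.0%) are also listed for the pseudogene H3P6, and 1210 of the remaining 1221 lie in its last exon. The H3P6 row, which also lists 1042 bases on chromosome 2 (174719800 to 174720841), held 1684 and 1603 reads in Vehicle and 1628 and 1947 reads in Hx1R8. From which of the listed places those reads came was not tested, so the count of H3-3A does not give the level of its transcript. The 1221 bases listed outside H3P6 also held at most 1 read counted for H3-3A per library. Why so few were counted there was not tested.

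Of the linker variants, H1-10, a linker histone made independently of replication, stood at 155 and 152 RPKM in Vehicle and 159 and 160 RPKM in Hx1R8. The germline genes outside the clusters were nearly silent. H1-8 had no reads, and H1-7 had none in Vehicle and 2 and 3 reads in Hx1R8. These counts were at or under the floor of 3 reads used here, so no fold is given.

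**Figure D2:**
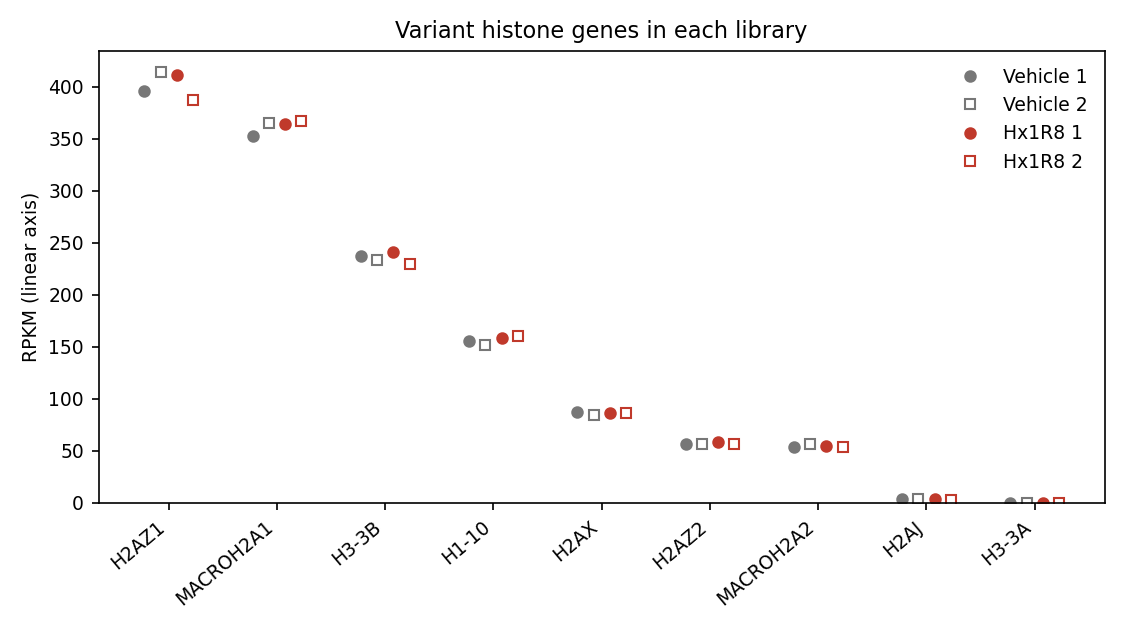
Level of 9 variant histone genes in RPKM (linear vertical axis) in every library, grey for Vehicle and red for Hx1R8, filled circles for replicate 1 and open squares for replicate 2. The 4 libraries lie close together for each gene, and the genes run from 402 RPKM on average for H2AZ1 down to H2AJ at 3.31 RPKM on average and H3-3A near 0.

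Reads of the clustered genes were few and concentrated. H2BC12, an H2B gene whose row holds a further exon block 7679 bases from the first, took 22.1% of the clustered reads, and the linker histone gene H1-2 took 9.92%. Of the clustered genes, 37 had at least 1 read in every library and 5 had at least 10 in every library, whereas 22 had fewer than 3 in each. No reads were listed for 11, of which 6 (H2AC18 and H2AC19, H3C14 and H3C15, H4C14 and H4C15) are pairs whose rows list the same 2 loci, so that no exon base belongs to 1 gene alone. The other 5 were H1-1, H2AC1, H2BC1, H4C6 and H4C7, for which the limit that a count of 0 allows, 3 reads, corresponds to 0.143 to 0.174 CPM (counts scaled to the library total alone), for counting error only. H3C4 and H2AC7 share 435 bases and are uncertain for the same reason. Because clustered genes of a family are near-identical in their coding parts, reads may also have been lost or moved among copies by the authors' alignment.

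Per exon length, H2BC12 led the clustered genes with 3.87 and 4.95 RPKM in Vehicle and 5.96 and 5.17 RPKM in Hx1R8. It was the only clustered gene above the variant H2AJ in mean RPKM, which depends on the listed lengths (887 bases against 3667 for H2AJ). Without scaling to length the order was reversed: in Vehicle H2AJ was at 12.3 and 12.2 CPM and H2BC12 at 3.43 and 4.39 CPM. H1-2 followed at 2.58 and 2.05 RPKM in Vehicle and 3.49 and 2.74 RPKM in Hx1R8, overlapping H2AJ. H2AC20, H2BC9, H2AC6 and H4C3 were the other 4 above 1 RPKM in all libraries, and 53 clustered genes were below 1 RPKM in all. Family medians in Vehicle were 0.452 RPKM for clustered H2A, 0.458 for H2B, 0.331 for H1, 0.217 for H3 and 0.0775 for H4 genes. The 5 single-locus clustered genes with more than 1 exon block or over 1000 exon bases (H2BC5, H2BC12, H2BC18, H2BC21 and H3C4) held 493 reads, or 33.7% of the clustered reads, while the other 55 single-locus rows had 354 to 790 exon bases.

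After Hx1R8 no histone gene passed the test. By edgeR's quasi-likelihood test with Benjamini-Hochberg adjustment over 14482 genes, 0 of the 16 members that passed the count filter were called in either direction, 0 had an unadjusted p under 0.05 (3.39% of all tested genes did), and every adjusted p was 0.9999. Across all tested genes 2 were called higher (0.0138%) and 1 lower (0.00691%), so none among 16 is no different from the background. DESeq2 and limma-voom also called 0 of the 16, with 0 at an unadjusted p under 0.05 in each. Without Vehicle replicate 2, edgeR called 0 of 19 members, with H2BC12 alone at an unadjusted p under 0.05. The 16 were 9 of the 10 variants and 7 of the 66 clustered genes. Members that passed the filter did so on reads, so the 7 are the clustered genes with most reads and not the class. Per exon length they were not the highest 7. H2BC21, with 2223 exon bases, had a mean of 0.399 RPKM, below H4C3 at 1.42 RPKM, which did not pass.

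**Figure D3:**
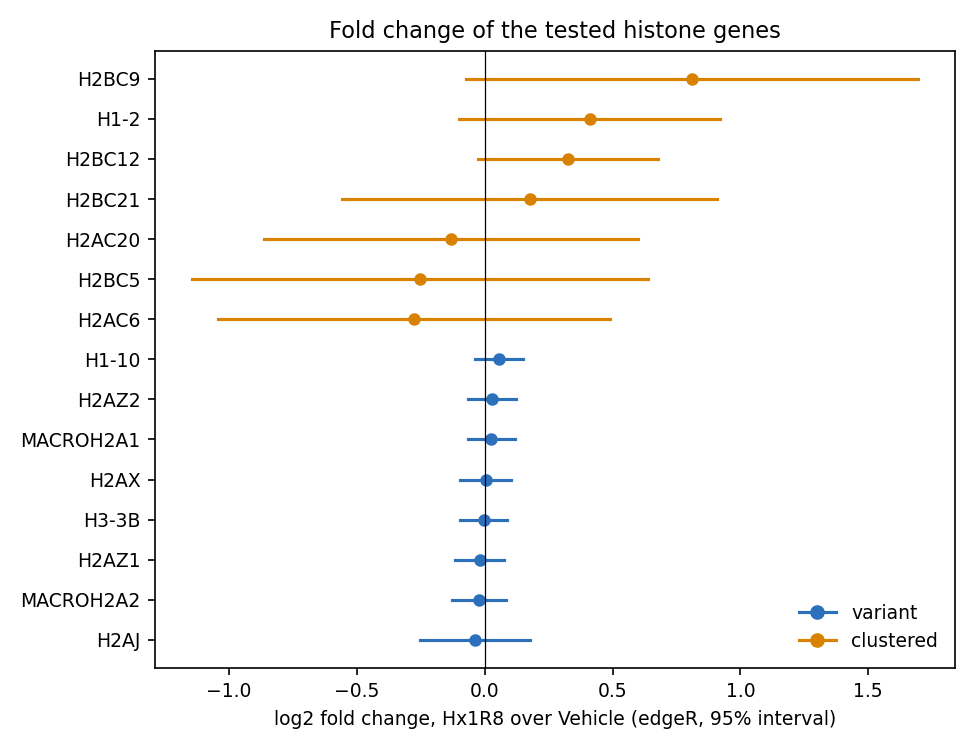
Log2 fold change of Hx1R8 over Vehicle (horizontal axis) with its 95% interval from edgeR for 15 tested histone genes, variants in blue and clustered genes in orange. All 15 intervals include 0, those of the variants are narrow and those of the clustered genes reach from 0.452-fold to 3.24-fold.

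The variants were tightly bounded around no change. All 9 tested had 95% intervals within 1.2-fold of no change, from 0.839-fold to 1.13-fold at the extremes, both set by H2AJ. Of all tested genes, 57.6% had intervals within 1.2-fold and 81.4% within 1.5-fold. In CPM, H2AZ1 was at 342 and 358 in Vehicle and 356 and 335 in Hx1R8, so the groups overlapped, and its log2 fold change was -0.02 (SE 0.05). MACROH2A1 was at 760 and 787 CPM in Vehicle and 785 and 790 CPM in Hx1R8, with a log2 fold change of 0.03 (SE 0.05). H3-3B was at 643 and 632 CPM in Vehicle and 653 and 620 CPM in Hx1R8, with a log2 fold change of -0.0036 (SE 0.05). These 3 abundant genes thus overlapped between the groups.

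H1-10 was the one variant whose Hx1R8 libraries both lay above both Vehicle libraries, at 241 and 243 CPM against 235 and 230 CPM. Its log2 fold change was 0.06 (SE 0.05, unadjusted p = 0.231), with an interval from 0.974-fold to 1.11-fold, and 14.7% of all tested genes lay in this order. No variant had both Hx1R8 libraries below both Vehicle libraries, an order seen in 15.2% of all tested genes. H2AX was at 139 and 134 CPM in Vehicle and 137 and 137 CPM in Hx1R8 (log2 0.0040, SE 0.05). H2AZ2 (log2 0.03, SE 0.05), MACROH2A2 (log2 -0.02, SE 0.05) and H2AJ (log2 -0.04, SE 0.11) had intervals that included 0. Of all 9 tested variants, 4 were above 0 and 5 below, against 48.9% of all tested genes above 0. The median of the 9 was -0.0036, beside -0.0018 over all tested genes, and it was 0.02 without Vehicle replicate 2.

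For the clustered genes the intervals were wide, 0 of the 7 lying within 1.5-fold of no change and 4 within 2-fold (H1-2, H2AC20, H2BC12 and H2BC21). H2BC12 had 60 and 76 reads in Vehicle (3.43 and 4.39 CPM) and 91 and 96 reads in Hx1R8 (5.29 and 4.58 CPM). Both Hx1R8 values were above both Vehicle values, with a log2 fold change of 0.33 (SE 0.17, unadjusted p = 0.068) and an interval from 0.983-fold to 1.60-fold. The gap between the groups was smaller than the distance between replicates, and the log2 value went from 0.16 without Vehicle replicate 1 to 0.52 without Vehicle replicate 2. H1-2, one of the somatic S-phase linker histones, had 33 and 26 reads in Vehicle and 44 and 42 reads in Hx1R8 (1.89 and 1.50 against 2.56 and 2.00 CPM). Its groups did not overlap either, at a log2 fold change of 0.41 (SE 0.25, unadjusted p = 0.111), which was 0.26 without Vehicle replicate 2 and 0.24 without Hx1R8 replicate 1. H2BC9, an H2B gene with the stem-loop shown above, had 8 and 8 reads in Vehicle and 16 and 15 reads in Hx1R8 (0.457 and 0.463 against 0.929 and 0.716 CPM). Its log2 fold change of 0.81 (SE 0.44, unadjusted p = 0.070) had an interval from 0.952-fold to 3.24-fold. H2BC9 passed the count filter through its Hx1R8 libraries alone, so the filter itself favoured a positive value for it. The other 6 passed in libraries of both groups.

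The other 4 tested clustered genes gave values on both sides of 0, and each rested on which libraries were kept. H2BC21, the longest clustered row at 2223 exon bases, had 16 and 13 reads in Vehicle and 16 and 20 in Hx1R8 (log2 0.18, SE 0.36, but 0.046 without Vehicle replicate 2), without overlap of the CPM values. H2AC6 had 16 and 15 reads in Vehicle and 14 and 14 in Hx1R8 (log2 -0.28, SE 0.38, but -0.13 without Hx1R8 replicate 2), and both Hx1R8 values lay below. H2AC20 had 19 and 14 reads in Vehicle and 16 and 17 in Hx1R8 (log2 -0.13, SE 0.36), and H2BC5 had 10 and 15 in Vehicle and 6 and 17 in Hx1R8 (log2 -0.25, SE 0.44), both with overlapping groups and with a sign that turned when 1 library was left out. Of the 7, H2BC9 included, 4 were above 0 and 3 below, with a median of 0.18, which is a description of the genes that passed the filter. Both Hx1R8 libraries lay above both Vehicle libraries in 4 of the 7 and below in 1, against 14.7% and 15.2% of all tested genes. H2BC9, for which the filter favoured that order, is among the 4. No test was made of these counts.

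**Figure D4:**
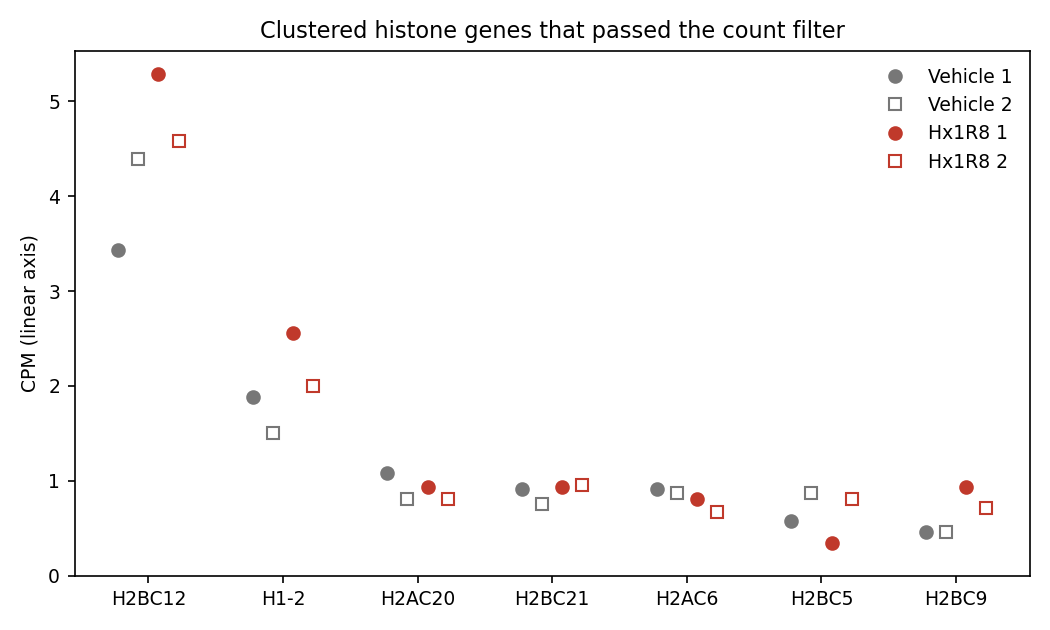
CPM (linear vertical axis) of the 7 clustered histone genes that passed the count filter, in every library, grey for Vehicle and red for Hx1R8, filled circles for replicate 1 and open squares for replicate 2. H2BC12, H1-2, H2BC21 and H2BC9 have both Hx1R8 points above both Vehicle points, an order seen in 14.7% of all tested genes. H2BC9 passed the filter through its Hx1R8 libraries alone, which favoured this order for it. H2AC6 has both below, an order seen in 15.2%. For H2BC12, H1-2 and H2BC21 the gap between the groups is smaller than the distance between replicates.

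Below the filter, 48 further clustered genes had reads. Both Hx1R8 libraries lay above both Vehicle libraries in 11 of them (22.9%) and below in 4 (8.33%), against 14.3% and 10.7% of the 6498 genes with reads below the filter. The 11 were H2AC8, H2AC16, H2BC4, H2BC14, H2BC18, H3C1, H3C6, H3C10, H4C5, H4C8 and H4C11. The 4 were H2AC14, H2AC17, H2BC7 and H4C3. The most abundant of the 48 by CPM were H4C3, with 9 and 13 reads in Vehicle and 8 and 10 in Hx1R8, and H2BC18, with 8 and 9 in Vehicle and 10 and 12 in Hx1R8. Next came H3C12 with 10 and 6 reads in Vehicle and 9 and 8 in Hx1R8, and H2BC15 with 7 and 10 in Vehicle and 8 and 6 in Hx1R8. In CPM, H4C3 is thus one of the 4 that were below, H2BC18 one of the 11 that were above, and H3C12 and H2BC15 overlapped.

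Without the count filter 66 members entered the same edgeR fit and 0 were called, against 0.00953% of all genes in that fit higher and 0.00477% lower, with 4 members at an unadjusted p under 0.05, a threshold that 2.93% of all genes in that fit passed. These were named after their values were seen, and all 4 were higher in Hx1R8. H2AC8 had 0 and 1 reads in Vehicle and 4 and 7 in Hx1R8, and H3C1 had 0 and 1 in Vehicle and 4 and 6 in Hx1R8. H3C10 had 2 and 0 in Vehicle and 7 and 6 in Hx1R8, and H4C8 had 1 and 4 in Vehicle and 6 and 11 in Hx1R8. The Vehicle totals of H2AC8, H3C1 and H3C10 lay under the floor of 3 reads, and the adjusted p was 0.995 for each. The clustered genes in that fit had a median log2 fold change of -0.039 (55 genes), of the opposite sign to the median of the 7 that passed the filter.

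Summed over all 66 clustered genes, reads were 318 and 330 in Vehicle and 368 and 446 in Hx1R8, which is 18.2 and 19.1 CPM against 21.4 and 21.3 CPM. The means were 18.6 ± 0.641 CPM (Vehicle) and 21.3 ± 0.0647 CPM (Hx1R8), each with its SD over 2 libraries, a ratio of 1.15 (1.18 without Vehicle replicate 2), and the 2 groups did not overlap. An SD over 2 libraries is itself uncertain and may fall under the counting error of so few reads. Among single tested genes, 14.7% also had both Hx1R8 libraries above both Vehicle libraries. No test was made of the sum. H2BC12 and H1-2 made up a large part of it: without them the sums were 12.9 and 13.2 CPM in Vehicle and 13.5 and 14.7 CPM in Hx1R8, a ratio of 1.08. For the variants the sums were 2593 and 2629 CPM in Vehicle and 2665 and 2597 CPM in Hx1R8, a ratio of 1.01, with overlapping groups. In bulk RNA, the number of cells in S phase and the histone RNA per cell cannot be told apart.

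By family the clustered sums went in different directions. Clustered H2A genes summed to 4.0 and 4.05 CPM in Vehicle and 3.54 and 3.25 CPM in Hx1R8, a ratio of 0.844. Clustered H1 genes summed to 2.74 and 2.49 CPM in Vehicle and 3.08 and 3.72 CPM in Hx1R8, a ratio of 1.30. H3 genes gave 2.11 and 1.33 CPM against 2.56 and 2.53 CPM (ratio 1.48), and H4 genes gave 1.2 and 1.73 CPM against 1.98 and 2.00 CPM (ratio 1.36). H2B genes, which held more reads than any other clustered family, gave 8.12 and 9.48 CPM against 10.2 and 9.78 CPM (ratio 1.14). In H2B and in H1 the separation of the groups rested on 1 gene each. Without H2BC12 the H2B sums were 4.69 and 5.09 CPM in Vehicle and 4.94 and 5.20 CPM in Hx1R8 (ratio 1.04), with overlapping groups. Without H1-2 the H1 sums were 0.857 and 0.983 CPM against 0.523 and 1.72 CPM, also with overlap. The H1 ratio was still 1.22, and H1-4 had 4 and 6 reads in Vehicle and 4 and 16 in Hx1R8. In H2B, H3 and H4 the Vehicle replicates lay farther apart than the Hx1R8 replicates, and the family ratios were not recomputed without Vehicle replicate 2. The sums of the genes on chromosome 6 were 15.3 and 16.8 CPM in Vehicle and 18.8 and 18.7 CPM in Hx1R8. Those on chromosome 1 were 2.86 and 2.31 CPM in Vehicle and 2.61 and 2.62 CPM in Hx1R8, with overlap.

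**Figure D5:**
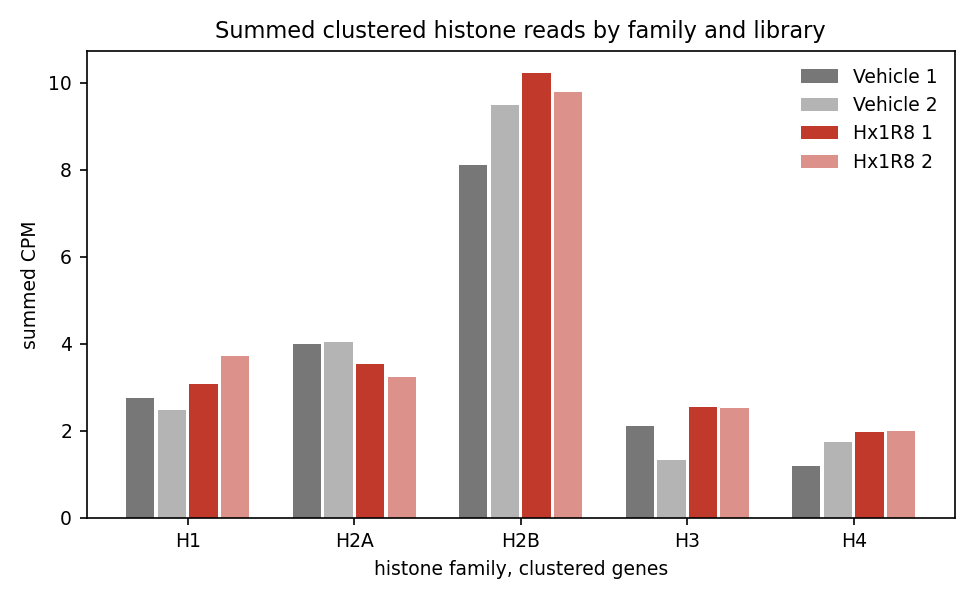
Summed CPM (vertical axis, from 0) of the clustered histone genes by family in each library, grey shades for Vehicle replicates 1 and 2 and red shades for Hx1R8 replicates 1 and 2. H2B holds the largest sums, and H2A is the family in which both Hx1R8 bars are lower than both Vehicle bars.

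Genes that make, process and place histones had no member past the threshold. Of 10 genes for histone gene transcription, 0 were called and 8 lay above 0 (48.9% of all tested genes), with a median log2 fold change of 0.05. Both Hx1R8 libraries lay above in 4 and below in 0 (14.7% and 15.2% of all tested genes). NPAT, the cyclin E/CDK2 substrate that activates histone genes, was at 52.7 and 50.7 CPM in Vehicle and 53.0 and 55.03 CPM in Hx1R8 (log2 0.06, SE 0.06). HINFP, an activator of H4 genes, was at 0.11 (SE 0.08), and POU2F1, which binds the octamer of H2B promoters, at 0.07 (SE 0.06). Of 28 genes for the 3′ processing and decay of histone messages 0 were called, with 12 above 0 and a median of -0.01, and both Hx1R8 libraries lay above in 8 and below in 2. SLBP, the protein that binds the stem-loops shown above, was at 192 and 188 CPM in Vehicle and 192 and 186 CPM in Hx1R8 (log2 -0.01, SE 0.05). CPSF3, the nuclease that cuts behind the stem-loop, was at 0.08 (SE 0.05), its partner CPSF2 at 0.06 (SE 0.05), and LSM4, of the decay ring, at -0.06 (SE 0.05). The SLBP groups overlapped.

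Of 34 chaperone and deposition genes 0 were called, with 14 above 0 (48.9% of all tested genes) and a median of -0.0043. All 34 intervals lay within 1.2-fold of no change (57.6% of all tested genes). Both Hx1R8 libraries lay above in 4 and below in 2 (14.7% and 15.2% of all tested genes). NASP, a chaperone of soluble H3 and H4, was at 166 and 168 CPM in Vehicle and 175 and 171 CPM in Hx1R8 (log2 0.05, SE 0.05). ATRX, which places the replacement H3 with DAXX, was at 0.07 (SE 0.05), the histone-binding RBBP7 at 0.07 (SE 0.05) and the importin IPO4 at -0.06 (SE 0.05). Of 20 S-phase and proliferation genes 0 were called, 13 were above 0, the median was 0.01, and all 20 intervals lay within 1.2-fold, with both Hx1R8 libraries above in 4 and below in 0. PCNA, the replication clamp, was at 146 and 135 CPM in Vehicle and 138 and 140 CPM in Hx1R8 (log2 -0.02, SE 0.05), TYMS, the thymidylate synthase, at 0.12 (SE 0.06) and CDT1, a replication licensing factor, at 0.08 (SE 0.06). Of 14 other histone variants in the table, 11 were below 1 CPM in all libraries and 3 were tested, none called. CENPA, the centromeric H3, was at 30.0 and 26.1 CPM in Vehicle and 26.4 and 27.0 CPM in Hx1R8 (log2 -0.07, SE 0.08), with H2AW at 0.07 (SE 0.24) and H3-5 at -0.09 (SE 0.35). S-phase genes and the chaperones were therefore bounded far more closely than the clustered histone genes themselves.

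Total counts per library ranged from 17259403 to 20920857. The 10 squamous markers were mixed. SOX2 (498 to 541 CPM), PITX1 (125 to 140 CPM) and the keratin KRT6A (17.1 to 19.9 CPM) were abundant, whereas TP63 (0.400 to 0.716 CPM) and the basal keratin KRT5 (1.16 to 1.91 CPM) were scarce and KRT14 and DSG3 were at 0. Of the squamous markers 4 were below 1 CPM in all libraries, as were 4 of 6 immune, 6 of 8 fibroblast and endothelial and 4 of 6 alveolar and airway markers, with PTPRC, CD3E and COL3A1 at 0. Among the latter lists NKX2-1 (10.2 to 12.9 CPM), COL1A1 (7.32 to 8.23 CPM) and AGER (6.82 to 8.13 CPM) were detected.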

How the data were processed

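STAR 2.7.9 and the build hg38 are named, without a role, per the submitters' processing notes. The authors deposited raw counts per gene. How reads were assigned (tool, annotation, strand, multi-mapped reads) was not given in the sources used here. Per the file headers the table also lists exon coordinates and length. Left out were 2 lines holding 1 gene's broken row. The test was that of edgeR 4.0.16 under R 4.3.3 (quasi-likelihood, TMM factors, filterByExpr, group as the only term, two-sided, Benjamini-Hochberg, threshold 0.05). Standard errors and 95% intervals came from that fit. CPM and RPKM used TMM-scaled library sizes and the listed exon length. No test was made over the members as a list. Every member was accounted for: variants and filtered-in clustered genes were named by values, with the 4 most abundant clustered genes below the filter, SLBP, NPAT, NASP, CENPA and PCNA, and up to 3 genes per pathway list by smallest p. Named values of 1 variant and of 1 S-phase gene are not reported here, while both stay in the counts and sums. The members and lists were chosen with earlier results of these data known. Libraries differed beyond sampling noise (chi-square per gene 1.45 to 2.81), so none was a copy, and Vehicle replicate 2 was the farthest from the others. On simulated counts for this comparison (14325 genes) changes of 1.2-fold were called in 16%, those of 1.5-fold in 88%, those of 2-fold in 96% and those of 4-fold in 100%. The changed genes had more expected reads per library than any clustered histone gene except H2BC12. Every gene was given the same fixed spread, and more genes were changed than were called in the data. The rates therefore do not carry over to the other clustered genes. Alternatives were other scalings and filters, DESeq2 1.42.0, limma-voom (limma 3.58.1), the replicate number as a block and leaving out each library.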

Additional observations from a re-analysis of the deposited data

How the results depend on the processing

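No histone gene was called under any alternative run, neither with other scalings, filters, DESeq2 or limma-voom nor with the replicate number as a block (0 higher, 0 lower) or with each library left out (0 to 0 in each direction). The replicate block gave a median of 0.18 for the clustered and -0.0038 for the variant genes; nothing but a number links the samples, and deviations of equal numbers had a correlation of 0.031 over the tested genes. The median of the clustered genes was -0.039 without the count filter (55 genes) and 0.37 with 1 CPM in 2 libraries (2 genes), since each filter tests other genes. With each library left out it ranged from 0.15 to 0.19, and the variant median from -0.03 to 0.02. The clustered medians of those runs were over 9 to 12 genes, not the 7 of the main fit. Their narrow range therefore does not show that the 7 were stable. The summed ratio ranged from 1.12 to 1.18 for clustered and 0.996 to 1.02 for variant genes with each library left out. Without the 2 clustered genes with most reads, chosen after seeing the data, it was 1.08. On unshared exon length the clustered median in Vehicle was 0.372 RPKM (60 genes). At an unadjusted p under 0.05 stood H2BC12 without Vehicle replicate 2 or without Hx1R8 replicate 2, and H1-4 without Hx1R8 replicate 1. Of 160 recomputed fold changes of 15 genes, 11 changed sign and 0 changed call. Without the filter H3-3B was at 0.00061. With each library left out signs turned for H2AC20 (-0.324 to 0.095), H3-3B (-0.040 to 0.033), H2AX (-0.020 to 0.030), H2AZ1 (-0.061 to 0.023), H2BC5 (-1.03 to 0.18), MACROH2A2 (-0.068 to 0.029) and H2AJ (-0.092 to 0.025). Without turning, H2BC12 ranged from 0.158 to 0.517, H1-2 from 0.242 to 0.590, H2BC21 from 0.046 to 0.325 and H2AC6 from -0.410 to -0.131. Sums of H2B without H2BC12 and of H1 without H1-2 were also added after seeing the data. Few reads limit the clustered genes: their intervals span up to 3.24-fold, so moderate changes may have gone undetected. Why their reads were few was not tested.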
